A study of Mus musculus with 18 samples.

Results

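The genes described here are 41 interferon-induced genes of the mouse, a listed set taken by gene symbol and found by Ensembl identifier. All 41 matched 1 identifier each among the 55416 gene identifiers of the tables. Their RNA was measured in 18 libraries of optic nerve head, the tissue through which retinal ganglion cell axons exit the eyeball, excised from sections under a microscope by laser capture microdissection. As background, interferons are cytokines released when cells sense foreign or misplaced nucleic acids, and they act on receptors that most cells carry. Type I interferons signal through a complex that holds STAT2 and IRF9 and binds the interferon-stimulated response element (ISRE), and interferon gamma acts mainly on genes that hold the gamma-activated site (GAS). In the brain, retina and optic nerve, microglia, astrocytes and endothelial cells are known to carry out this response.

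The labels assign 8 libraries to B6.EDA+/+ mice, and the other 10 to the control strain C57BL/6J. B6.EDA+/+ mice carry a fibronectin allele that always includes the extra domain A (EDA) exon, and that domain is known as a ligand of Toll-like receptor 4. There were 3 libraries of B6.EDA+/+ and 5 of C57BL/6J at 22 months of age, and 5 and 5 at 12 months. The labels name no treatment and do not say whether each library is 1 animal, so the p-values measure the spread between libraries, which may be technical in part. Expression is given in TPM, an abundance corrected for transcript length and library total, as the authors deposited it, and differences between groups come from a fit to the authors' expected counts.

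The libraries held 13097485 to 18488720 counts, of which the 41 members took 0.062% to 0.594%. The EDA exon did not follow the labels: it was held by 0% to 12.6% of the fibronectin transcripts spanning it at 22 months and 0% to 58.5% at 12 months in libraries labelled B6.EDA+/+, and by 0% to 100% and 0% to 96.2% in those labelled C57BL/6J, on 0.87 to 7.91 TPM of such transcripts in 17 libraries and 18.6 TPM in the other. At these low levels the shares may carry no information on the genotype, which was not tested. Libraries are named here by their label, as EDA-labelled or control-labelled, and a direction between them is a direction between labels. Xist exceeded the Y-linked transcripts in 5 libraries, 1 EDA-labelled at 22 months (replicate 1), 2 EDA-labelled at 12 months and 2 control-labelled at 12 months. An identifier without a symbol, ENSMUSG00000119584, took 3.26% to 32.8% of the reads. Astrocyte markers summed to 5509 to 24136 TPM, so the tissue's main glial type was seen in each library, and in 1 control-labelled library at 22 months photoreceptor markers summed to 4521 TPM. As these are bulk samples, fewer cells of a type and less RNA per cell cannot be told apart.

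The promoters of the members were read first, since they hold the letters that the pathway's own factors are known to bind. RefSeq windows on GRCm38.p6 were at hand for 28 of the 41 members. TTTC, any 2 bases and TTTC again, or on the other strand GAAA, any 2 bases and GAAA, stand here for the ISRE, and these letters occurred in the 250 bases before the start of 16 of these 28 members, 57.1%, against 3.46% of 27025 genes. All 7 GTPase members with a window held them, as did 4 of 6 Ifit, Oas and Mx members, 3 of 6 membrane and other effectors, Isg15, and 1 of 4 transcription factors, Stat2. The 24 matches began between 14 and 222 bases before the start, with a median of 69. TTC, any 3 bases and GAA, which stand for the GAS, occurred in 8 of 28 members, 28.6%, against 8.13% of genes. The 2 motifs overlapped in 1 member window. Ifit2 and Oasl2 held no ISRE letters in these windows, which says only that these letters are not there. The following 6 windows are shown because they carry the shared letters in the Ifit genes (Ifit1, Ifit3), the GTPases (Gbp7, Igtp) and 2 other effectors (Isg15, Rsad2), as the 160 bases before the RefSeq start, 5′ to 3′ on the gene's strand, with the ISRE letters in capitals; Ifit1 lies at chr19:34640729-34640888 on the plus strand, Ifit3 at chr19:34583369-34583528 on the plus strand, Isg15 at chr4:156200819-156200978 on the minus strand, Rsad2 at chr12:26456453-26456612 on the minus strand, Gbp7 at chr3:142530176-142530335 on the plus strand and Igtp at chr11:58199396-58199555 on the plus strand.
Ifit1: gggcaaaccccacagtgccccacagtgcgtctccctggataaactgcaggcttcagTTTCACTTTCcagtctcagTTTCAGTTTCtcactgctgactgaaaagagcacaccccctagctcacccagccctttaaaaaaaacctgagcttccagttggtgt
Ifit3: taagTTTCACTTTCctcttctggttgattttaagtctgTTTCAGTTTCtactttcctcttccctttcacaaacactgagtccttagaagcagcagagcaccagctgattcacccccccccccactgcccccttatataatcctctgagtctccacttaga
Isg15: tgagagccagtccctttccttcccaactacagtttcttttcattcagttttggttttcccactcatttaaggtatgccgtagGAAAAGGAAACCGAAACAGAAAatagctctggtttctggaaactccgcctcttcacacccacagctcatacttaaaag
Rsad2: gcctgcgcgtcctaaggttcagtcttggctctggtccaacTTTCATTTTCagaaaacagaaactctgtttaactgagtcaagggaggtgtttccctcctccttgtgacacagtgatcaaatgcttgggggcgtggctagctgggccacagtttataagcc
Gbp7: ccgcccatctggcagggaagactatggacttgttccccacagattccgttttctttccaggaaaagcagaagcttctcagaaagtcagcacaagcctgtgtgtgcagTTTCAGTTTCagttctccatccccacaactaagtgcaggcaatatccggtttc
Igtp: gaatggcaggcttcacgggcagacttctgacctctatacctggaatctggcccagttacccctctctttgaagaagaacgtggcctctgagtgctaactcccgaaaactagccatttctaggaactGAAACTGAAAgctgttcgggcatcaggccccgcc
The 2 matches of Ifit1 begin 104 and 85 bases before the start, and those of Ifit3 begin 156 and 122 bases before it. In Isg15 the capitals join 3 overlapping matches. A match is a description of the letters and not a measured binding site.

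**Figure D1:**
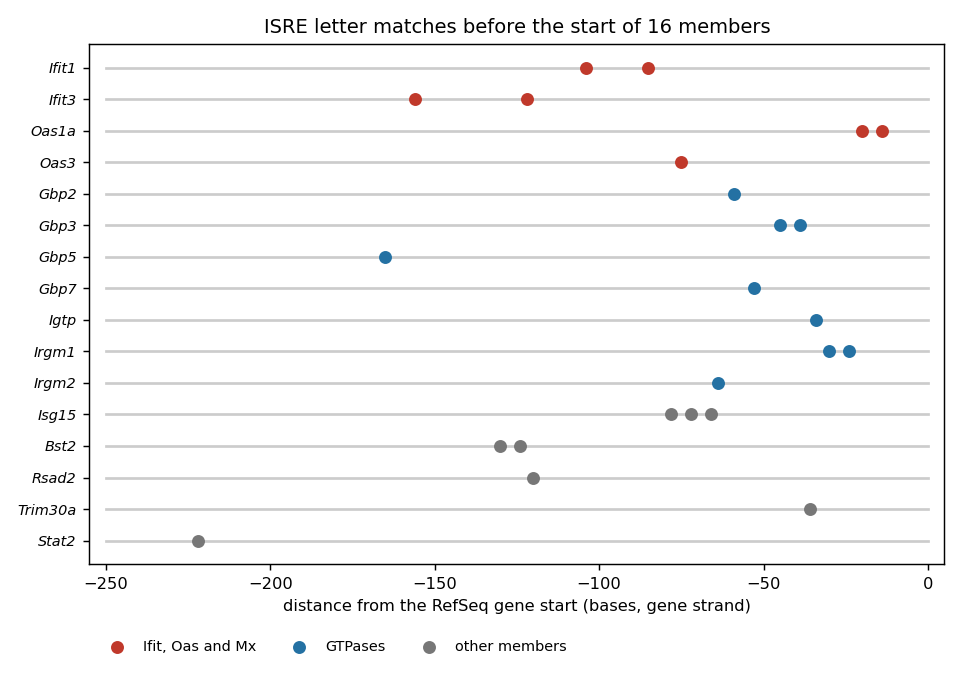
Positions of ISRE letter matches (points) in the 250 bases before the RefSeq start (grey lines) of the 16 members that hold any, coloured by member group. The horizontal axis is the distance from the gene start in bases. The 24 matches lie between 14 and 222 bases before the start, with a median of 69.

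At the tissue level most members were scarce. The median over the 18 libraries was at least 20 TPM for 7 members (Ifit2, Ifit3, Oasl2, Ifi27, Gbp2, Gbp7 and Ifitm3), between 1 and 20 TPM for 24, and under 1 TPM for 10. Only 16 of the 41 members had reads in every library. Ifitm3 alone made up 22.7% to 82.2% of the members' summed TPM. The filter on low counts kept 40 members, and Mx2, at 0 TPM in 15 libraries and at most 1.04 TPM in the others, was not tested.

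Members were high together in single libraries, and those libraries did not share a label. In 2 libraries, control-labelled replicate 3 and EDA-labelled replicate 1, both at 22 months, many members were high together. Among them were most Ifit, Oas and Mx members and GTPases, and Isg15 and Usp18, but fewer of the transcription factors and nucleic acid sensors. These libraries were singled out after their values were seen. One or the other held the highest value of the 18 for 29 of the 40 tested members, 72.5%, against 9.84% of all 15118 genes tested. Both were among the 3 highest libraries for 23 of 40 members, 57.5%, against 2.35% of all genes, which took in 6 of 8 Ifit, Oas and Mx members and 9 of 10 GTPases. Summed over the 9 Ifit, Oas and Mx members the levels were 1212, 301 and 89.4 TPM in the EDA-labelled and 208, 307, 1810.4, 233 and 149 TPM in the control-labelled libraries at 22 months. At 12 months the same sum was 147, 192, 364, 290.5 and 202 TPM in the EDA-labelled and 193, 582, 197, 219 and 557 TPM in the control-labelled libraries. Apart from the 2 high libraries, control-labelled replicates 2 and 5 at 12 months stood above the rest. The 10 GTPases summed to 792, 148 and 122 TPM in the EDA-labelled and 109, 202, 844, 133 and 75.3 TPM in the control-labelled libraries at 22 months. At 12 months the GTPases summed to 92.8, 109, 129.6, 33.7 and 107 TPM in the EDA-labelled and 85.1, 275, 107, 83.3 and 239 TPM in the control-labelled libraries. The same 4 libraries were the highest for both groups, and both labels and both ages are among them.

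**Figure D2:**
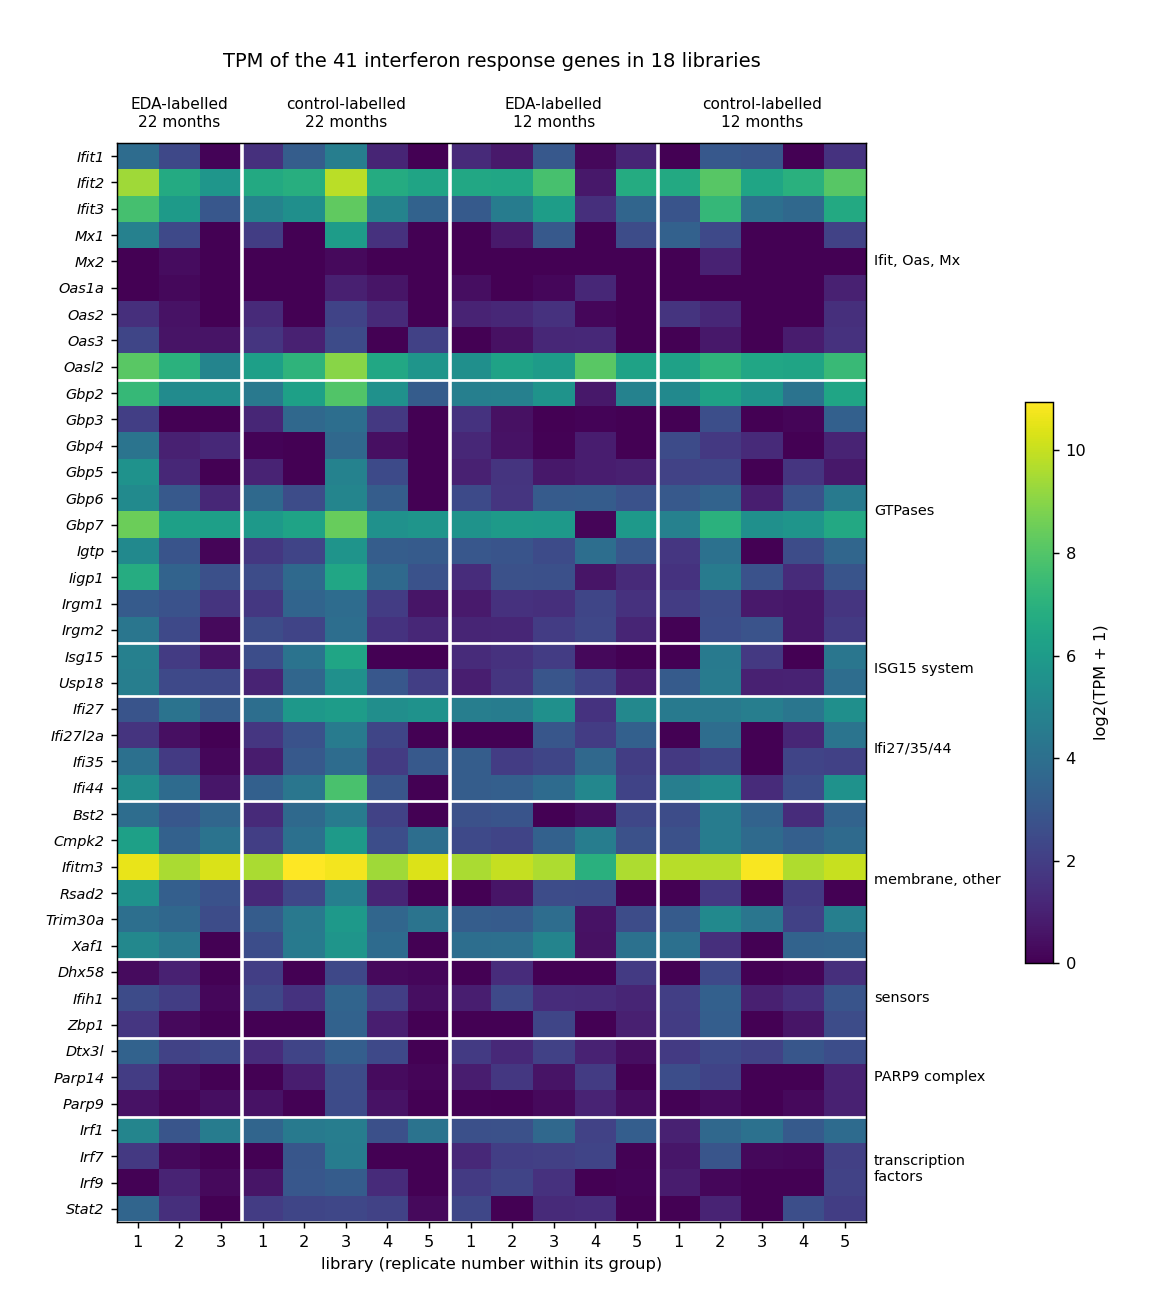
Levels of the 41 members (vertical axis, grouped by role) in the 18 libraries (horizontal axis, replicate number within each group), as log2(TPM + 1). The columns of EDA-labelled replicate 1 and control-labelled replicate 3 at 22 months are bright across the Ifit, Oas and Mx genes and the GTPases, while Ifitm3 is bright in nearly all libraries.

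**Figure D3:**
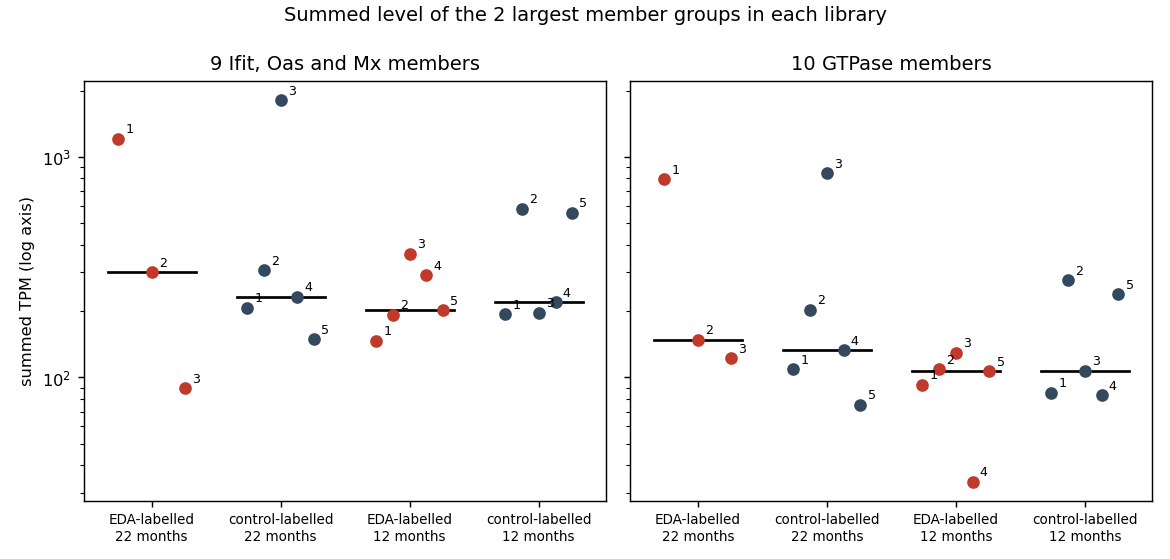
Summed TPM (log axis) of the 9 Ifit, Oas and Mx members (left) and the 10 GTPase members (right) in each library, with the replicate number beside each point and a line at the group median. The highest sums are 1810 and 1212 TPM on the left and 844 and 792 TPM on the right, from control-labelled replicate 3 and EDA-labelled replicate 1 at 22 months.

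Among the Ifit genes, whose proteins bind viral RNA and hold back its translation, Ifit2 was the most abundant. Replicates are given in order throughout. Ifit2 was at 670.3, 104 and 52.4 TPM in the EDA-labelled and 98.5, 116, 892, 104 and 84.3 TPM in the control-labelled libraries at 22 months. At 12 months Ifit2 was at 94.1, 88.4, 214, 0.61 and 106 TPM in the EDA-labelled and 100.4, 274, 86.7, 123 and 276 TPM in the control-labelled libraries. One EDA-labelled library at 12 months, replicate 4, had almost none, while its Oasl2 was high. Ifit3 was at 211, 60.7 and 6.89 TPM in the EDA-labelled and 29, 42.6, 312, 28.6 and 9.93 TPM in the control-labelled libraries at 22 months. At 12 months Ifit3 was at 7.47, 23, 67.5, 1.77 and 11 TPM in the EDA-labelled and 6.12, 157, 15, 11.9 and 100.4 TPM in the control-labelled libraries. Its high libraries were the same 4 as for Ifit2. Ifit1 was far scarcer, at 13.7, 4.11 and 0.07 TPM in the EDA-labelled and 1.89, 8.33, 24.6, 1.18 and 0 TPM in the control-labelled libraries at 22 months. At 12 months Ifit1 was at 1.47, 0.66, 7.11, 0.19 and 1.21 TPM in the EDA-labelled and 0, 6.97, 6.34, 0 and 2.05 TPM in the control-labelled libraries. All 4 groups overlapped for each of these 3 genes, and near-identical neighbours of the Ifit cluster make the single values estimates.

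The Oas genes encode sensors of double-stranded RNA that make the messenger activating RNase L, and Oasl2 is an OAS-like relative. Oasl2 was at 285, 126 and 29.5 TPM in the EDA-labelled and 71.7, 139, 508, 94.6 and 51.8 TPM in the control-labelled libraries at 22 months. At 12 months Oasl2 was at 42.4, 77.7, 64.3, 285 and 79.1 TPM in the EDA-labelled and 75.1, 137, 89, 83.2 and 171 TPM in the control-labelled libraries. EDA-labelled replicate 4 at 12 months, with 285 TPM, stood beside EDA-labelled replicate 1 at 22 months, and only control-labelled replicate 3 at 22 months was higher. The 3 other Oas members were low. Oas1a was at 0, 0.18 and 0 TPM in the EDA-labelled and 0, 0, 0.96, 0.55 and 0 TPM in the control-labelled libraries at 22 months. At 12 months Oas1a was at 0.31, 0, 0.15, 1.3 and 0 TPM in the EDA-labelled and 0, 0, 0, 0 and 1.03 TPM in the control-labelled libraries. Most libraries thus listed no Oas1a. Oas2 was at 1.76, 0.43 and 0 TPM in the EDA-labelled and 1.5, 0, 3.64, 1.49 and 0 TPM in the control-labelled libraries at 22 months. At 12 months Oas2 was at 1.14, 1.34, 1.92, 0.13 and 0 TPM in the EDA-labelled and 2.09, 1.33, 0, 0 and 1.78 TPM in the control-labelled libraries. It stayed under 4 TPM in each library. Oas3 was at 3.94, 0.49 and 0.5 TPM in the EDA-labelled and 2.18, 0.99, 4.7, 0 and 3.4 TPM in the control-labelled libraries at 22 months. At 12 months Oas3 was at 0, 0.41, 1.36, 1.43 and 0 TPM in the EDA-labelled and 0, 0.62, 0, 0.79 and 1.95 TPM in the control-labelled libraries. Here too control-labelled replicate 3 and EDA-labelled replicate 1 at 22 months held the highest values. Mx1, a dynamin-like antiviral GTPase whose gene is defective in C57BL/6J mice, was at 27.3, 4.41 and 0 TPM in the EDA-labelled and 2.95, 0, 65, 1.96 and 0 TPM in the control-labelled libraries at 22 months. At 12 months Mx1 was at 0, 0.7, 7.25, 0 and 4.9 TPM in the EDA-labelled and 9.45, 4.34, 0, 0 and 3.49 TPM in the control-labelled libraries. It was listed at 0 in 7 libraries and passed 10 TPM only in the 2 high ones.

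Guanylate-binding proteins (Gbp) are large GTPases that coat the compartments of intracellular pathogens and are known above all as targets of interferon gamma. Gbp7 was at 356, 74.2 and 72.2 TPM in the EDA-labelled and 59.6, 81.5, 341, 45.4 and 51.8 TPM in the control-labelled libraries at 22 months. At 12 months Gbp7 was at 48, 62.2, 58.1, 0.12 and 60 TPM in the EDA-labelled and 26.7, 127, 44.7, 50.9 and 98 TPM in the control-labelled libraries. Outside the 2 high libraries, and EDA-labelled replicate 4 at 12 months with 0.12 TPM, it kept within 26.7 to 127 TPM. Gbp2 was at 161, 38 and 39.2 TPM in the EDA-labelled and 20.3, 73.7, 254, 46.2 and 8.1 TPM in the control-labelled libraries at 22 months. At 12 months Gbp2 was at 25.6, 26.5, 48.4, 0.64 and 28.3 TPM in the EDA-labelled and 35.6, 78.7, 48, 16.8 and 85.8 TPM in the control-labelled libraries. It was lowest in the same EDA-labelled replicate 4. Gbp3 was at 3.15, 0 and 0 TPM in the EDA-labelled and 1.26, 11.9, 14.6, 2.48 and 0 TPM in the control-labelled libraries at 22 months. At 12 months Gbp3 was at 2.06, 0.4, 0, 0.08 and 0 TPM in the EDA-labelled and 0, 5.22, 0, 0.1 and 9.4 TPM in the control-labelled libraries. It is the GTPase in which EDA-labelled replicate 1 at 22 months was not among the 3 highest. Gbp4 was at 17.6, 0.99 and 1.37 TPM in the EDA-labelled and 0.09, 0, 12.1, 0.38 and 0 TPM in the control-labelled libraries at 22 months. At 12 months Gbp4 was at 1.33, 0.44, 0.04, 0.85 and 0 TPM in the EDA-labelled and 4.72, 2.52, 1.48, 0 and 1.11 TPM in the control-labelled libraries. Gbp5, known as an activator of inflammasomes, showed the same 2 high libraries. Gbp5 was at 47, 1.35 and 0 TPM in the EDA-labelled and 1.1, 0, 27.8, 4.43 and 0 TPM in the control-labelled libraries at 22 months. At 12 months Gbp5 was at 1.03, 2.09, 0.62, 0.84 and 0.93 TPM in the EDA-labelled and 3.46, 3.83, 0, 2.23 and 0.65 TPM in the control-labelled libraries. No other library passed 5 TPM of Gbp5. Gbp6 ran from 0 to 37 TPM, again highest in those 2 libraries. Reads shared between Gbp paralogs were divided by estimation, so single members are uncertain.

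The immunity-related GTPases attack the vacuoles of intracellular parasites (Iigp1) or restrain that attack (Irgm1, Irgm2 and Igtp). Iigp1 was at 108, 10.2 and 5.44 TPM in the EDA-labelled and 4.84, 12.2, 87.5, 12.5 and 5.78 TPM in the control-labelled libraries at 22 months. At 12 months Iigp1 was at 1.66, 5.57, 5.35, 0.54 and 1.48 TPM in the EDA-labelled and 2.02, 22.6, 5.71, 1.58 and 6.19 TPM in the control-labelled libraries. The 2 high libraries exceeded each of the other 16, whose highest was 22.6 TPM. Irgm1 was at 7.89, 5.78 and 2.17 TPM in the EDA-labelled and 2.4, 10.7, 13.7, 2.9 and 0.53 TPM in the control-labelled libraries at 22 months. At 12 months Irgm1 was at 0.73, 1.92, 1.79, 3.9 and 1.92 TPM in the EDA-labelled and 2.88, 4.84, 0.68, 0.57 and 2.21 TPM in the control-labelled libraries. Control-labelled replicate 2 at 22 months, with 10.7 TPM, lay between the 2 high libraries. Igtp reached 49.1 and 35.3 TPM in them and at most 15.8 TPM elsewhere, and Irgm2 reached 14.6 and 18.8 TPM against at most 5.93 TPM.

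The 2 high libraries were not alike. Of the 40 tested members, 30 were higher in control-labelled replicate 3 and 10 in EDA-labelled replicate 1. Of all 15118 genes tested, 7837 and 6684 were. Some of these differences rest on few counts, as for Oas1a, with 17 in control-labelled replicate 3 and 0 in EDA-labelled replicate 1. All 8 tested Ifit, Oas and Mx members were higher in control-labelled replicate 3, with a median difference of -0.86 log2 CPM (EDA-labelled replicate 1 minus control-labelled replicate 3). The GTPases divided evenly, 5 and 5, with a median of -0.05, against -0.05 for all genes tested. Iigp1, Gbp5, Gbp6, Gbp7 and Irgm2 were the GTPases that were higher in EDA-labelled replicate 1. Some members were high in 1 of these libraries only. By log2 CPM Irf9 had rank 2 of the 18 libraries in control-labelled replicate 3 and rank 14 in EDA-labelled replicate 1, and Ifi27 had ranks 2 and 17. Dhx58 had ranks 1 and 11, Ifi27l2a ranks 1 and 10, and Irf7 ranks 1 and 7. Single libraries were compared here, so these differences have no replicate check.

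**Figure D4:**
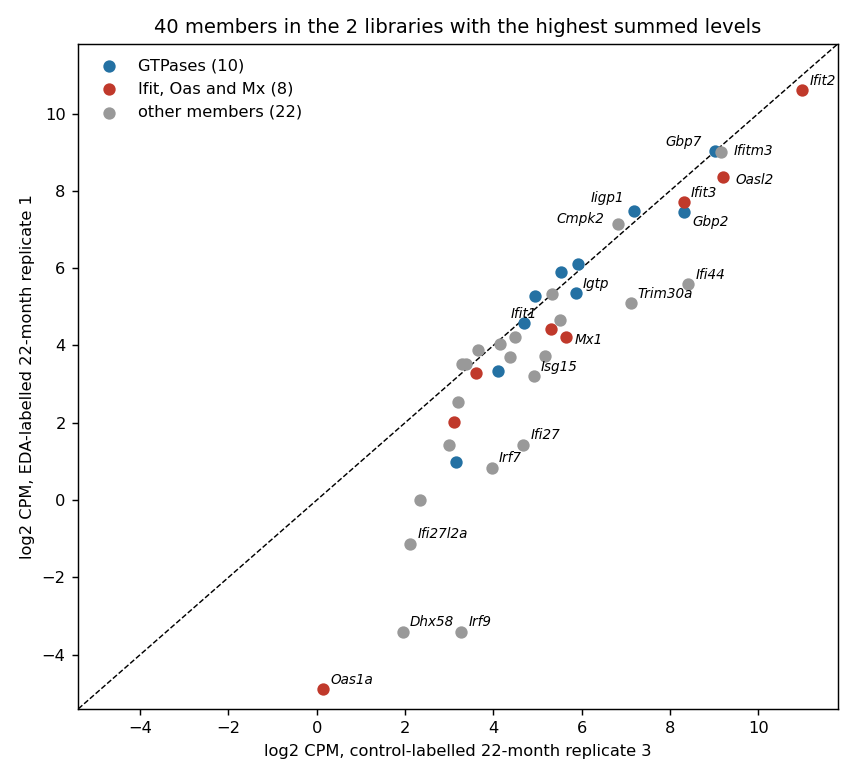
Levels of the 40 tested members in control-labelled replicate 3 (horizontal axis) and EDA-labelled replicate 1 (vertical axis) at 22 months, both in log2 CPM, with a dashed line of equality. The 8 Ifit, Oas and Mx members lie below the line, the 10 GTPases lie 5 above and 5 below it, and Irf9, Dhx58, Ifi27 and Ifi27l2a lie far below it.

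Isg15, a ubiquitin-like protein joined to other proteins, was at 26.4, 2.75 and 0.43 TPM in the EDA-labelled and 5.04, 16.8, 86.1, 0 and 0 TPM in the control-labelled libraries at 22 months. At 12 months Isg15 was at 1.57, 1.94, 2.91, 0.17 and 0 TPM in the EDA-labelled and 0, 22, 2.5, 0 and 18.6 TPM in the control-labelled libraries. It was listed at 0 in 5 libraries, while control-labelled replicate 3 at 22 months held 86.1 TPM. Usp18, the protease that removes ISG15 and dampens the type I receptor, was at 24.8, 4.29 and 4.16 TPM in the EDA-labelled and 1.15, 11.2, 44.7, 6.84 and 3.06 TPM in the control-labelled libraries at 22 months. At 12 months Usp18 was at 0.87, 2.2, 6.49, 3.54 and 0.89 TPM in the EDA-labelled and 7.85, 22.3, 1.03, 1.06 and 14 TPM in the control-labelled libraries. Its 4 highest libraries were those of the Ifit, Oas and Mx sum.

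Ifi27, a small protein of mitochondria, departed from the others. Ifi27 was at 6.28, 16.9 and 8.46 TPM in the EDA-labelled and 14.4, 55.8, 66.1, 42.2 and 47.2 TPM in the control-labelled libraries at 22 months. At 12 months Ifi27 was at 24.6, 23.2, 43.8, 2.03 and 33.6 TPM in the EDA-labelled and 21.4, 20.4, 24.7, 18.4 and 43.3 TPM in the control-labelled libraries. EDA-labelled replicate 1 at 22 months, high for most members, held only 6.28 TPM, and the 3 EDA-labelled libraries at 22 months overlapped the control-labelled ones through 1 library, control-labelled replicate 1. Its relative Ifi27l2a was at 2.12, 0.35 and 0 TPM in the EDA-labelled and 2.37, 5.72, 22.2, 3.95 and 0 TPM in the control-labelled libraries at 22 months. At 12 months Ifi27l2a was at 0, 0, 6.66, 2.89 and 9.17 TPM in the EDA-labelled and 0, 13.9, 0, 1.25 and 17.8 TPM in the control-labelled libraries. Control-labelled replicate 3 at 22 months was highest for both genes. Ifi35 was at 15.3, 2.65 and 0.14 TPM in the EDA-labelled and 0.77, 7.4, 13.6, 2.75 and 7.38 TPM in the control-labelled libraries at 22 months. At 12 months Ifi35 was at 8.4, 2.89, 3.86, 11.8 and 2.93 TPM in the EDA-labelled and 2.57, 3.87, 0, 3.68 and 3.3 TPM in the control-labelled libraries. EDA-labelled replicate 4 at 12 months had rank 3 for Ifi35 with 11.8 TPM. Ifi44 reached 224 TPM in control-labelled replicate 3 at 22 months and at most 47 TPM in any other library.

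Ifitm3, a membrane protein that blocks the entry of viruses from endosomes, was the most abundant member. Ifitm3 was at 1542, 749.7 and 1282 TPM in the EDA-labelled and 751, 1979, 1726, 678 and 1345 TPM in the control-labelled libraries at 22 months. At 12 months Ifitm3 was at 757, 1007, 782, 124 and 784 TPM in the EDA-labelled and 866, 852, 1831, 802 and 1052 TPM in the control-labelled libraries. Control-labelled replicate 2 at 22 months was highest in TPM, and of the 2 high libraries control-labelled replicate 3 had rank 3 and EDA-labelled replicate 1 rank 4, or ranks 5 and 6 by log2 CPM. Cmpk2, a mitochondrial nucleotide kinase whose gene adjoins Rsad2, was at 74.8, 9.64 and 17 TPM in the EDA-labelled and 3.1, 15.6, 61.9, 4.97 and 14.4 TPM in the control-labelled libraries at 22 months. At 12 months Cmpk2 was at 4.4, 3.68, 9.48, 24.1 and 5.59 TPM in the EDA-labelled and 5.5, 23.1, 12.9, 8.95 and 13 TPM in the control-labelled libraries. Rank 3 fell to EDA-labelled replicate 4 at 12 months with 24.1 TPM. Rsad2, known as viperin, which makes an antiviral nucleotide, was at 47, 8.84 and 5.72 TPM in the EDA-labelled and 1.41, 3.98, 25.3, 1.21 and 0 TPM in the control-labelled libraries at 22 months. At 12 months Rsad2 was at 0, 0.56, 4.87, 4.7 and 0 TPM in the EDA-labelled and 0, 2.55, 0, 2.66 and 0 TPM in the control-labelled libraries. All 3 EDA-labelled libraries at 22 months passed 5 TPM of Rsad2, as did 1 other library. Trim30a, a ubiquitin ligase of the TRIM family, was at 15.1, 11.8 and 4.78 TPM in the EDA-labelled and 8.03, 20.5, 60.1, 11.1 and 17.6 TPM in the control-labelled libraries at 22 months. At 12 months Trim30a was at 8.28, 7.78, 14.2, 0.43 and 4.88 TPM in the EDA-labelled and 7.72, 35.5, 18.9, 3.29 and 25.2 TPM in the control-labelled libraries. It had rank 7 by log2 CPM in EDA-labelled replicate 1 at 22 months. Bst2, the tetherin that holds budding viruses at the cell surface, ran from 0 to 23.2 TPM, and Xaf1, a partner of the apoptosis inhibitor XIAP, ran from 0 to 51.5 TPM.

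The cytosolic sensors were scarce. Ifih1, which encodes MDA5, ran from 0.13 to 10.6 TPM, Dhx58, which encodes LGP2, from 0 to 4.33 TPM, and the Z-nucleic acid sensor Zbp1 from 0 to 9.99 TPM. Dtx3l, the ubiquitin ligase that pairs with PARP9, was at 9.9, 3.49 and 4.38 TPM in the EDA-labelled and 1.63, 3.78, 8.61, 4.37 and 0.02 TPM in the control-labelled libraries at 22 months. At 12 months Dtx3l was at 2.65, 1.43, 3.38, 1.06 and 0.33 TPM in the EDA-labelled and 2.66, 4.37, 3.41, 6.55 and 4.93 TPM in the control-labelled libraries. Parp9 did not exceed 4.67 TPM and Parp14, another ADP-ribosyltransferase, did not exceed 5.07 TPM. Of the transcription factors, Irf1, which drives Gbp genes, was at 30.7, 6.4 and 23.5 TPM in the EDA-labelled and 10.8, 21.1, 24.2, 5.3 and 17.1 TPM in the control-labelled libraries at 22 months. At 12 months Irf1 was at 5.37, 5.55, 11.9, 3.48 and 8.64 TPM in the EDA-labelled and 0.99, 12.1, 15.9, 7.69 and 13.3 TPM in the control-labelled libraries. Irf1 was highest in EDA-labelled replicate 1 at 22 months, and control-labelled replicate 3 and EDA-labelled replicate 3 came next with 24.2 and 23.5 TPM. Irf7, Irf9 and Stat2 reached at most 22.9, 7.99 and 10.8 TPM.

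Values of other cell types moved with the pattern in part. The 18 microglial and macrophage markers summed to 320.1 to 567 TPM in EDA-labelled and 170.5 to 961 TPM in control-labelled libraries at 22 months, and to 221 to 875 and 254 to 333 TPM at 12 months, with 1 to 7 of them at 0 in each library. The 2 high libraries held 551 TPM (EDA-labelled replicate 1) and 961 TPM (control-labelled replicate 3). Sums of 875, 724 and 567 TPM were found in EDA-labelled replicates 3 and 4 at 12 months and replicate 3 at 22 months. Myelin markers summed to 22978 TPM in control-labelled replicate 3 at 22 months and 22462 TPM in EDA-labelled replicate 3 at 12 months, and to 3424 TPM in EDA-labelled replicate 1 at 22 months. Fibroblast and mural markers summed to 625.1 TPM in that library, the highest of the 18, and to 315 TPM in control-labelled replicate 3 at 22 months. Endothelial markers summed to 318 and 190 TPM in the same 2 libraries. Their highest sum was 386 TPM, in EDA-labelled replicate 4 at 12 months. The 12 T and NK cell markers summed to 5.58 to 20.1 and 5.15 to 49.7 TPM at 22 months and to 3.1 to 19.4 and 9.78 to 39.4 TPM at 12 months, in EDA-labelled and control-labelled libraries. Their highest sums, 49.7, 39.4 and 35.4 TPM, were in control-labelled replicate 3 at 22 months and control-labelled replicates 5 and 2 at 12 months, mostly Cd3e and Trac. The granzyme genes Gzma and Gzmb and the B cell genes Ms4a1, Cd79a and Cd79b were at 0 in all 18 libraries, and 5 to 11 of the 12 T and NK cell markers were at 0 in each library. What these cell types contribute to the member levels was not tested.

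The other genes of the pathway were read from lists of ligands, receptors and kinases, sensors and brakes. Of 20 interferon genes, 19 were at 0 in each library and Ifnz did not exceed 0.93 TPM, so none was tested. None of the 9 receptor and kinase genes, the 17 tested of 20 sensing genes or the 9 brakes passed the threshold in any of the 5 comparisons by edgeR. By library, the sensing genes summed to 880 TPM in EDA-labelled replicate 1 and 893 TPM in control-labelled replicate 3 at 22 months, and to at most 454 TPM elsewhere. Of these sums Tlr3 held 292 and 314 TPM and Samhd1 226 and 234 TPM. Mavs, at 13.6 and 12.3 TPM, and Traf3, at 19.05 and 16.24 TPM, lay within the range of the other libraries. The sums thus do not show each sensing gene to be high. Rigi, which encodes the RNA sensor RIG-I, was at 114 and 86.5 TPM in these 2 libraries and at most 28.2 TPM elsewhere. The genes listed as brakes summed to 159 and 192 TPM and to at most 113 TPM elsewhere. Isg20, an interferon-induced gene counted in that list, held 39.7 and 105.65 TPM of these sums. It made up most of the sum in control-labelled replicate 3 at 22 months, so that sum does not show the other listed brakes to be high. The high levels of these 2 libraries thus extended to genes outside the 41 members. Of the pathway genes tested, Ticam1 had an unadjusted p under 0.05 in 3 comparisons and Tlr9 in 2, and no receptor, kinase or brake gene did. Of the 17 tested sensing genes, 1 was lower between the labels at each age, against 1.87% (22 months) and 1.59% (12 months) of genes. Between ages in EDA-labelled libraries 1 was higher and 1 lower, against 2.6% and 2.38% of all genes. For the interaction 1 was lower, against 2.48%. Single calls among 17 genes cannot be set apart from these shares. Ticam1, the adaptor of Toll-like receptor 3, gave -2.48 ± 0.73 (SE; edgeR, adjusted p = 1) between the labels at 22 months, -1.89 ± 0.70 (SE; edgeR, adjusted p = 0.961) between ages in EDA-labelled libraries and -2.12 ± 0.89 (SE; edgeR, adjusted p = 1) for the interaction. Its 3 EDA-labelled libraries at 22 months held 0.99, 2.88 and 0.98 TPM. The closest other library, control-labelled replicate 4 at 12 months, held 3.22 TPM. Ticam1 is named here for its p, so these values are no separate support. Tlr9, a sensor of DNA in endosomes, gave -1.51 ± 0.68 (SE; edgeR, adjusted p = 1) between the labels at 12 months and 1.76 ± 0.75 (SE; edgeR, adjusted p = 0.961) between ages in EDA-labelled libraries.

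At 22 months no member differed between EDA-labelled and control-labelled libraries at an adjusted p under 0.05 (edgeR quasi-likelihood test, Benjamini-Hochberg adjustment), and 0% of all 15118 genes did. DESeq2 and limma voom with sample weights also called 0 members, and 0.232% and 0.00661% of all genes. At an unadjusted p under 0.05 1 member was lower and 0 were higher, against 1.87% and 2.09% of all genes. That member was Ifi27, with a log2 fold change of -2.17 ± 0.73 (SE; edgeR, adjusted p = 1), and no leave-one-out fit brought it above -1.89. Of the 40 members, 15 lay above 0, 37.5%, against 46% of all genes, and the median was -0.25 against -0.07. The Ifit, Oas and Mx members had 2 of 8 above 0 with a median of -0.38, and the GTPases 6 of 10 with a median of 0.28. In these groups the smallest p were those of Oas1a, listed at 0 in 11 libraries, at -2.14 ± 2.48 (SE; edgeR, adjusted p = 1) and Gbp3 at -3.05 ± 2.29 (SE; edgeR, adjusted p = 1). The median turned with single libraries: it was -1.5 without EDA-labelled replicate 1, 0.79 without control-labelled replicate 3, and -0.43 without both, with 3 of 40, 28 of 39 and 11 of 40 members above 0. Without EDA-labelled replicate 2 or 3 it was 0.13 or 0.11. EDA-labelled replicate 1 was also the 1 library of this age in which Xist exceeded the Y-linked transcripts, and with sex as a covariate the median was -0.89, with 8 of 40 members above 0, and that of the GTPases -0.68. Marker genes at an unadjusted p under 0.05 were Lum at 0.90 ± 0.34 of the fibroblast list, Tyrobp at 1.82 ± 0.83 (SE) of the microglial list and 1 photoreceptor marker. Of their lists, 9 of 15 tested microglial, 7 of 10 fibroblast and mural and 1 of 8 photoreceptor markers lay above 0. The part of these genes in the result was not tested.

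At 12 months most members lay lower in EDA-labelled libraries, but none passed the threshold in edgeR, where 0% of all genes passed, or in DESeq2 (0.146%) or limma voom (0.0132%). No member had an unadjusted p under 0.05, against 2.96% of all genes higher and 1.59% lower. Of the 40 members, 34 lay below 0, 85%, against 50.5% of all genes, and the median was -0.83 against -0.01. The 10 GTPases all lay below 0, with a median of -0.97, and 7 of 8 Ifit, Oas and Mx members did, with a median of -0.70. The smallest p among these groups were those of Iigp1, -1.73 ± 0.94 (SE; edgeR, adjusted p = 1), and Ifit3, -1.65 ± 1.04 (SE; edgeR, adjusted p = 1). Dtx3l gave -1.72 ± 0.84 (SE; edgeR, adjusted p = 1) and was the 1 member whose groups did not overlap on the log2 CPM scale, against 0.423% of all genes; in TPM 1 library on each side overlapped. The ISG15 protease gene Usp18 gave -1.99 ± 0.97 (SE; edgeR, adjusted p = 1). Each leave-one-out median stayed between -1.03 and -0.62, but without control-labelled replicates 2 and 5 together it was -0.01, with 19 of 39 members above 0. When the fit took in the share of reads from ENSMUSG00000119584, as the arcsine of its square root, the median was -0.34. In that fit 24 of 40 members, 7 of 10 GTPases and 4 of 8 Ifit, Oas and Mx members lay below 0. Marker genes at an unadjusted p under 0.05 were all higher in EDA-labelled libraries. They were C1qa at 1.44 ± 0.55 and C1qb at 1.35 ± 0.62 of microglia, Acta2 at 1.95 ± 0.66 of mural cells, Sox9 at 0.75 ± 0.34 of astrocytes, Mal at 1.33 ± 0.53 (SE) of myelin, and Olig2, which was above 0 TPM in only 3 libraries. Of their lists, 6 of 15 tested microglial, 5 of 10 fibroblast and mural, 6 of 10 astrocyte and 10 of 10 myelin markers lay above 0. The part of these genes in the result was not tested.

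Between 22 and 12 months in control-labelled libraries, 34 of 40 members lay above 0, 85%, against 51.6% of all genes, and none passed the threshold in edgeR, where 0% of all genes passed, or in DESeq2 (0.152%) or limma voom (0%). No member had an unadjusted p under 0.05, against 2.14% of genes higher and 1.37% lower. The median was 0.66 against 0.02 for all genes. The 10 GTPases and the 8 Ifit, Oas and Mx members all lay above 0, with medians of 0.82 and 0.48. Irgm1 had the smallest p among the GTPases, 1.47 ± 0.85 (SE; edgeR, adjusted p = 1), and Mx1 among the Ifit, Oas and Mx members, 1.86 ± 1.84 (SE; edgeR, adjusted p = 1). Without control-labelled replicate 3 at 22 months the median was -0.33, with 14 of 39 members above 0, and Mx1 went to -1.65. Without control-labelled replicates 2 and 5 at 12 months it was 1.67, with 37 of 39 above 0. Of 8 photoreceptor markers tested, 5 had an unadjusted p under 0.05 in this comparison, and 1 library carried them. Control-labelled replicate 2 at 22 months held 4521 TPM of these markers, the other 4 libraries of the group 5.41 to 29.3 TPM and those at 12 months 7.82 to 15.7 TPM. Without that library the median of the members was 0.66, as with it. The myelin genes Mal at 1.14 ± 0.53 (SE) and Olig2 also lay higher at 22 months at an unadjusted p under 0.05, and their part in the result was not tested. Of the lists, 9 of 10 myelin and 8 of 8 tested photoreceptor markers lay above 0. Xist lay lower, with 2 of 5 libraries at 12 months and 0 of 5 at 22 months in which it exceeded the Y-linked transcripts, and with sex as a covariate the median of the members was 0.96.

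Between 22 and 12 months in EDA-labelled libraries no member passed the threshold in edgeR, where 0% of all genes passed, or in DESeq2 (0.284%) or limma voom (0%). Of the 40 members, 32 lay above 0, 80%, against 46.9% of all genes, and the median was 1.41 against -0.06. At an unadjusted p under 0.05 6 members were higher and 0 lower, 15% against 2.6% of genes higher and 0% against 2.38% lower. Iigp1 led with a log2 fold change of 3.82 ± 1.07 (SE; edgeR, adjusted p = 0.961), and Cmpk2 followed with 2.53 ± 0.74 (SE; edgeR, adjusted p = 0.961). The others were Irf1 at 1.82 ± 0.80, Gbp7 at 1.97 ± 0.91, Gbp5 at 3.69 ± 1.75 and Ifitm3 at 1.11 ± 0.52 (SE). The groups of Iigp1, Gbp7 and Dtx3l did not overlap on the log2 CPM scale, 7.5% of members against 1.76% of all genes. In TPM 1 library on each side of Iigp1 overlapped, at 5.44 and 5.57 TPM. All 10 GTPases lay above 0, with a median of 1.65, and 6 of 8 Ifit, Oas and Mx members did, with a median of 1.47. Without EDA-labelled replicate 1 at 22 months the median was -0.04, with 19 of 40 above 0. Without that library Iigp1 was at 1.66, Cmpk2 at 1.51 and Gbp7 at 1.07, and Gbp5 went to -0.85. Ifitm3 and Irf1 were lowest without another library, EDA-labelled replicate 3 at 22 months, at 0.70 and 1.36. Marker genes that also lay higher at 22 months in these groups, at an unadjusted p under 0.05, were Tyrobp at 2.54 ± 0.84 and Cx3cr1 at 1.39 ± 0.59 of microglia, Cldn5 at 3.22 ± 1.49 of endothelium and Lum at 0.84 ± 0.34 (SE) of fibroblasts. Of their lists, 8 of 15 tested microglial, 6 of 11 endothelial and 5 of 10 fibroblast and mural markers lay above 0. The part of these genes in the result was not tested. EDA-labelled replicate 1 at 22 months held 397 TPM of Lum and 17 TPM of Cldn5, the highest of the 18 libraries for both.

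**Figure D5:**
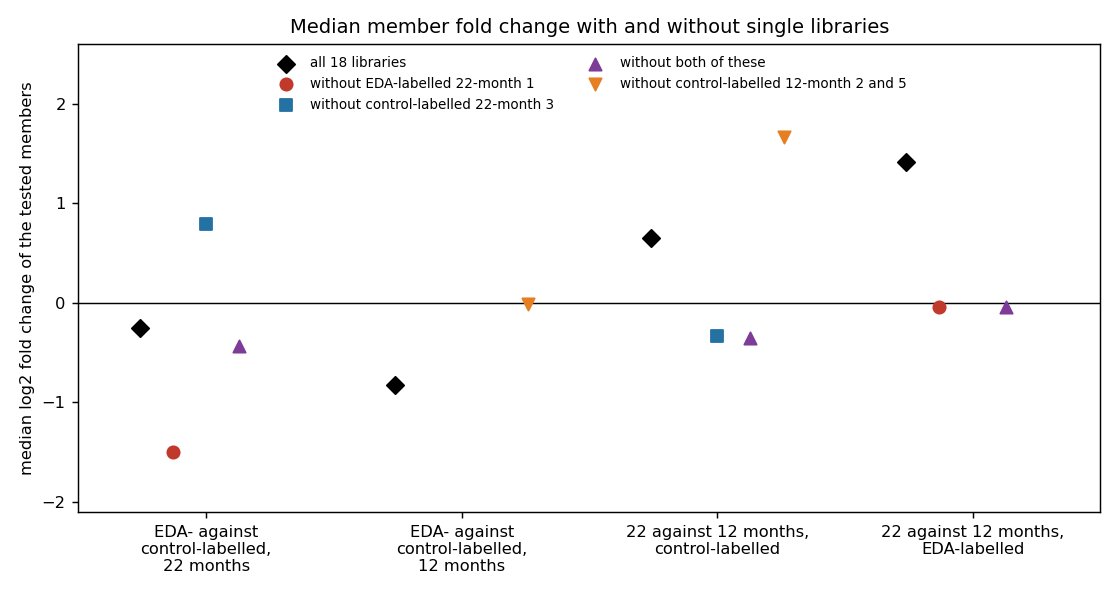
Median log2 fold change of the tested members (vertical axis) in 4 comparisons (horizontal axis), from all 18 libraries (black) and from fits without the libraries named in the legend. The median age difference of EDA-labelled libraries is 1.41 with all libraries and -0.04 without EDA-labelled replicate 1 at 22 months, and that of control-labelled libraries is 0.66 and, without control-labelled replicate 3 at 22 months, -0.33.

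The age difference itself was compared between the labels by an interaction term, which uses all 4 groups and shares their libraries with the comparisons above. No member passed the threshold in edgeR, where 0% of all genes passed, or in DESeq2 (0.245%) or limma voom (0.00661%). At an unadjusted p under 0.05 1 member was above and 1 below 0, against 1.54% and 2.48% of genes. Cmpk2 gave 2.04 ± 0.98 (SE; edgeR, adjusted p = 1), and Ifi27 gave -1.99 ± 0.90 (SE; edgeR, adjusted p = 1). Of the 40 members, 27 lay above 0, 67.5%, against 47.2% of genes, with a median of 0.43. That median ran from -0.73 without EDA-labelled replicate 1 at 22 months to 1.45 without control-labelled replicate 3 at 22 months, and was 0.30 without both. Without control-labelled replicates 2 and 5 at 12 months it was -0.35, with 14 of 39 members above 0, and with sex as a covariate it was 0.03, with 21 of 40. Marker genes at an unadjusted p under 0.05 were Tyrobp at 2.37 ± 1.11, C1qa at -1.82 ± 0.85, Mal at -2.27 ± 0.82 (SE), Olig2, the mural gene Myh11 and 2 photoreceptor markers. Myh11 did not exceed 3.61 TPM in any library. Of their lists, 10 of 15 tested microglial, 0 of 10 myelin, 5 of 10 fibroblast and mural and 1 of 8 photoreceptor markers lay above 0. The part of these genes in the result was not tested.

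EDA-labelled replicate 4 at 12 months set members of the same groups apart from each other. It held 0.61 TPM of Ifit2, 0.64 of Gbp2, 0.12 of Gbp7 and 124 of Ifitm3, each the lowest of the 18 libraries. In the same library Oasl2 was at 285, Ifi44 at 32.4 and Cmpk2 at 24.1 TPM, with ranks 2, 5 and 3 of the 18 libraries. Genes outside the members were as uneven there: Ifngr1, the interferon gamma receptor, was at 3.55 TPM against 66.7 to 216 TPM in the other 17 libraries, and astrocyte markers summed to 24136 TPM. Its total of 13518162 counts was within the range of the other libraries.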

How the data were processed

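Libraries were prepared from RNA of captured tissue with the SMART-Seq v4 low-input kit and Nextera XT, per the labels' protocols, a chemistry without strand information. STAR served for alignment and RSEM for quantification, per the labels' protocols, and GRCm39 as the build, per the submitters' processing notes; the sources used here give no versions and no annotation. Expected counts, as estimated by the authors with RSEM, make up one column of the gene tables, and 3.59% of them were not whole. TPM, scaled by the authors for length and library total, make up another, and isoform TPM served for the fibronectin exon. Expected counts were rounded for tests. Because RSEM divides shared reads by likelihood, single paralogs and overlapping genes carry estimated values.

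Symbols came from the GENCODE M21 annotation of GRCm38, another build, which gave 52083 of 55416 identifiers a symbol. Exon coordinates of this annotation were used to pick, by transcript identifier, the fibronectin isoforms that span the EDA exon. Isoforms that it lacks were left out of those shares. Promoter windows are RefSeq's on GRCm38.p6.

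Groups follow the labels. Replicates were numbered in accession order, and no library was paired with another. Genes were kept with filterByExpr (15118), scaled by TMM and fitted with 1 mean per group over all 18 libraries in edgeR 4.0.16 (R 4.3.3, robust quasi-likelihood test, two-sided). The 5 contrasts were genotype label at each age, age within each label and their interaction, with Benjamini-Hochberg adjustment over all genes and a threshold of 0.05. Errors are standard errors from that fit. Log2 CPM used a prior count of 0.5. As a covariate, the share of ENSMUSG00000119584 was entered as the arcsine of its square root. The code was tested on simulated data. Alternatives were RLE scaling, DESeq2 1.42.0, limma 3.58.1 (voom with sample weights, and log2(TPM + 1)), no filter, a mean of at least 2 log2 CPM, only the groups compared, covariates for sex and for the share of ENSMUSG00000119584, and each library left out; fits without 2 libraries at once were added after seeing the data.

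The members and lists were chosen with earlier results of these data known. By rule, values in every library are given for members with a median of at least 20 TPM and, per comparison, for up to 3 Ifit, Oas and Mx members, 3 GTPases and 3 others with the smallest unadjusted p. Pathway and marker genes are named where they pass the threshold, have an unadjusted p under 0.05 in a comparison described (up to 4 per list), or serve as a check of a library. Photoreceptor markers, high in 1 library, are given by count instead. Rigi, Tlr3, Samhd1, Mavs and Traf3 were chosen after their values were seen. Isg15 was added after its values were seen, as were the ranges and the levels in single libraries of other members. Some genes of the pathway and marker lists are not reported here, and their values enter no count or sum of those lists.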

Additional observations from a re-analysis of the deposited data

Results flagged for a closer look

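In groups of 5 libraries, a value was singled out when its gap to the nearest library exceeded 0.71 of the group's range. Chance alone does this in about 1 in 20 groups of normally distributed values, a rate that need not hold for TPM. Of 30 groups tested, over the 7 most abundant members, the 2 sums and the mean member level, 12 values met this. The sums and the mean take in single members, so the groups are not independent and the 12 values cannot be set against that rate. The EDA-labelled group at 22 months has 3 libraries and was not tested. In control-labelled replicate 3 at 22 months, Ifit2 at 892 TPM, Ifit3 at 312 TPM, Oasl2 at 508 TPM, Gbp2 at 254 TPM and Gbp7 at 341 TPM stood far above the other 4 libraries of the group, as did the summed Ifit, Oas and Mx members at 1810.4 TPM and the summed GTPases at 844 TPM. In EDA-labelled replicate 4 at 12 months, Oasl2 at 285 TPM stood far above its group, and Gbp7 at 0.12 TPM and Ifitm3 at 124 TPM far below it. Among control-labelled libraries at 12 months, Ifi27 stood apart in replicate 5 at 43.3 TPM and Ifitm3 in replicate 3 at 1831 TPM. These 12 values come from 4 libraries. The cause was not tested.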

How the results depend on the processing

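No member passed the threshold in any of the 5 comparisons under any of the 30 settings run, counting the fit reported, which gave 110 counts in all. The lowest adjusted p of a member across settings was 0.0538, in DESeq2, for Iigp1 between ages in EDA-labelled libraries, and the lowest in each of the other 4 comparisons lay between 0.221 and 0.617. No paired analysis was possible because the replicate numbers follow accession order only and pair no libraries. With each library left out in turn, the median member log2 fold change ran from -1.5 to 0.79 (labels at 22 months), -1.03 to -0.62 (labels at 12 months), -0.33 to 0.97 (age, control-labelled), -0.04 to 1.63 (age, EDA-labelled) and -0.73 to 1.45 (interaction). The age median of EDA-labelled libraries moved beyond the spread between libraries without EDA-labelled replicate 1 at 22 months, to -0.0388, and without that library and control-labelled replicate 3 together, to -0.0385. At 22 months the median between labels was 0.49 in limma voom with sample weights, 0.48 with the ENSMUSG00000119584 covariate and -0.89 with the sex covariate, against -0.25; the cause was not tested. The medians of the other 4 comparisons kept their sign under the settings that left out no library, but not their size. They ran from -0.87 to -0.30 (labels at 12 months), 0.35 to 0.96 (age, control-labelled), 0.71 to 1.59 (age, EDA-labelled) and 0.03 to 1.28 (interaction, from the sex covariate to limma voom). Without control-labelled replicates 2 and 5 at 12 months the interaction median was -0.35. From 0 to 18 members a library were at 0 TPM, with 18 in a library of 15092260 counts and 1 in a library of 13097485 counts; what depth limits was not tested.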
